A study of Mus musculus with 4 samples.

Results

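The genes described here are 40 cell cycle genes, taken by symbol from the 31053 genes counted in every library. They comprise 14 genes of S phase (DNA replication and the supply of its building blocks), 23 genes of G2/M (the spindle, chromosome segregation and the switch into mitosis) and 3 cyclins of G1, namely Ccnd1, Ccnd2 and Ccne1. The question asked of them was which hippocampal cell types hold dividing cells in each library. Each member was counted over cells with 650 or more detected genes.

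A cell that leaves rest first raises a D-type cyclin, whose kinase partners release the E2F factors, and these switch on the replication genes. The MCM helicase then opens the DNA, PCNA holds the polymerase on it, and ribonucleotide reductase and thymidylate synthase supply nucleotides. In G2 a later programme is switched on, with cyclin B and Cdk1 at its centre, followed by the spindle motors, the chromosomal passenger proteins and the anaphase-promoting complex. In the adult mouse brain most neurons and mature glia have left the cycle, whereas oligodendrocyte precursor cells (OPCs) and the neural progenitors of the hippocampal dentate gyrus go on dividing.

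The data are single-cell UMI counts (a UMI is a tag that marks 1 captured RNA molecule) from the whole hippocampus of C57BL/6 mice labelled as 12 weeks old. The 2VO group had both common carotid arteries clamped for a period and then released, a model of global cerebral ischemia, and the sham group had the same surgery with the clamps released at once. Cells of 1 male mouse gave 1 library, and 1 2VO library (2VO 1) and 2 sham libraries (sham 1 and sham 2) were analysed; the second 2VO library was not analysed here. Thus every value of the 2VO group is that of 1 mouse.

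After the filter 3912 cells of 2VO 1, 5109 of sham 1 and 5126 of sham 2 were kept, 14147 in all, and 7 to 10 barcodes were shared by any pair of libraries. The 2VO library was much the shallowest, with a median of 2311 UMIs per cell, against 8191 in sham 1 and 5249 in sham 2, so that shares of cells were compared after each cell had been thinned to 1000 UMIs. The cells fell into 30 clusters, from which 15 classes could be named by their markers (a name means that the cells are like that type) and 367 cells stayed unnamed. The clusters were made without 184 cell cycle genes, the members among them, but other genes of the cycle, such as Aspm and Gmnn, were not left out. The OPC class was uneven across the libraries. Its cluster 3 held 63 of the 451 OPCs of 2VO 1, against 604 of 651 in sham 1 and 268 of 304 in sham 2, and its cluster 14, led by Pcdh15, Pdgfra and Vcan, held the other 388 in 2VO 1, against 47 and 36. The cells of cluster 14 in 2VO 1 had a median of 2406 UMIs, against 5781 for cluster 3, and the doublet caller marked 8.49% of cluster 14.

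Promoter sequences are shown first, because they carried a feature that the choice of the members did not use and that set the S members apart from the G2/M members. The window of 250 bases before to 50 bases after the start was at hand for 33 of the 40 members (RefSeq, GRCm38.p6), 20 of them G2/M and 12 S genes. The CHR letters (TTTGAA or TTCGAA, either strand), known from mitotic promoters, were in 16 of the 20 G2/M windows (80%) and 2 of the 12 S windows (16.7%), beside 19.4% of all 27025 windows. An E2F word (the letters TTCCCGC on either strand, or the variant TTCGCGC of them, or the variant with TTGGCGC, or the variant with TTGCCGC, where copies on both strands can overlap) was in 4 of the 20 G2/M windows (20%) and 7 of the 12 S windows (58.3%), beside 9.69% of all windows. CCAAT, on either strand, was in 18 G2/M and 9 S windows and in 37.9% of all. A match is a run of letters and not a measured site.

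The following stretches are the 180 bases before the start of 3 G2/M and 2 S genes, read 5′ to 3′ along each gene's strand, with CHR, CCAAT and E2F letters in capitals. Top2a encodes the topoisomerase that untangles sister chromosomes and lies on the minus strand (chr11:98992943-99024189, stretch chr11:99024190-99024369). Kif11 encodes the motor that pushes the spindle poles apart and lies on the plus strand (chr19:37376403-37421859, stretch chr19:37376202-37376381). Birc5 encodes survivin of the chromosomal passenger complex and lies on the plus strand (chr11:117849251-117855743, stretch chr11:117849057-117849236); it is shown because it holds none of the letters. Mcm6 encodes a helicase subunit on the minus strand (chr1:128331590-128359664, stretch chr1:128359706-128359885), and Rrm1 the large subunit of ribonucleotide reductase on the plus strand (chr7:102441695-102469771, stretch chr7:102441515-102441694).
Top2a: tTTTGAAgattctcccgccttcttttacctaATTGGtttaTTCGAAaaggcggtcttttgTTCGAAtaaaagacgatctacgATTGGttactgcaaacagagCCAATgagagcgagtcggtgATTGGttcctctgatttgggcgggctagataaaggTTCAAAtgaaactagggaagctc
Kif11: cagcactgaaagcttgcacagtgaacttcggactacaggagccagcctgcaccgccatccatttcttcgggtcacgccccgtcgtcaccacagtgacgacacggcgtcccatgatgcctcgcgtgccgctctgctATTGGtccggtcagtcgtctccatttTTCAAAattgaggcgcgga
Birc5: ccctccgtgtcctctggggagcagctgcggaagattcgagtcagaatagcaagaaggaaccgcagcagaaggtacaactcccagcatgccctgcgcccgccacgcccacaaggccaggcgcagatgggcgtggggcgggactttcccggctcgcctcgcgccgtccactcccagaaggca
Mcm6: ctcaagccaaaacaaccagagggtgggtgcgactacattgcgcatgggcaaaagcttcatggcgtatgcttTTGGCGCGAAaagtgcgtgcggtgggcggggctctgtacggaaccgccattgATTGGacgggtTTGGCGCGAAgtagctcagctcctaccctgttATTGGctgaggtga
Rrm1: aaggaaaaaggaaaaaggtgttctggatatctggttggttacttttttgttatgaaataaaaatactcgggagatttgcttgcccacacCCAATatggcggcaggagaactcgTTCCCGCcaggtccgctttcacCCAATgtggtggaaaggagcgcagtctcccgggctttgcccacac

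The Top2a stretch held 4 CHR and 4 CCAAT matches and no E2F word. The Mcm6 stretch held 2 CCAAT matches and 4 overlapping E2F matches in 2 places, and no CHR. The same split was seen in longer lists of cell cycle genes that are not members. CHR letters were in 32 of 42 windows of other G2/M genes (76.2%) and in 6 of 27 windows of other S genes (22.2%), and an E2F word was in 23.8% and 63% of them.

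Dividing cells were few and sharply marked. Of the 14147 cells, 13980 had 0 to 2 of the 23 G2/M members, 73 had 3 or 4, 28 had 5 to 9 and 66 had 10 or more. The 94 cells with 5 or more were 14 cells of 2VO 1, 64 of sham 1 and 16 of sham 2. OPCs held 56 of the 94 (5 in 2VO 1, 44 in sham 1 and 7 in sham 2) and neural progenitor cells (NPCs) held 25 (3, 17 and 5 in the same order). The other 13 were 5 endothelial cells (EC), 3 microglia, 3 ependymocytes (EPN), 1 macrophage and 1 unnamed cell. No cell of the other 9 classes reached 5 members: oligodendrocytes (OLG), committed oligodendrocyte precursors (COP), astrocytes (AST), choroid plexus epithelial cells (CPEC), glutamatergic neurons (GLUTN), Cajal-Retzius neurons (CRN), pericytes (PER), vascular smooth muscle cells (VSMC) and vascular leptomeningeal cells (VLMC). None of the 94 was called a doublet.

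**Figure D1:**
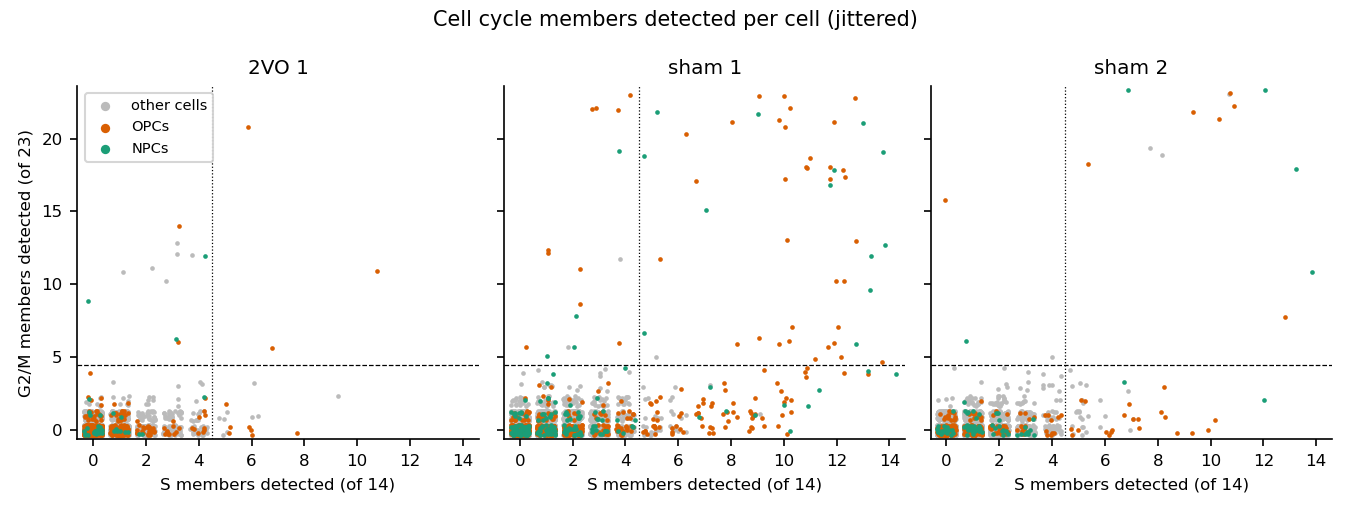
Each point is 1 cell, placed by the number of S members (x axis, of 14) and G2/M members (y axis, of 23) with at least 1 UMI and jittered; OPCs are orange, NPCs green and all other cells grey. The lines lie below 5 members, and 14 cells of 2VO 1, 64 of sham 1 and 16 of sham 2 stand above the dashed line.

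The 2 groups of dividing cells differed in the markers of their classes and shared some others. Clusters were named from marker lists that include Pdgfra and Sox11, so differences in these follow in part from the naming. Eomes and Olig2 were not on those lists. Of the 56 OPCs with 5 or more G2/M members, 55 had Pdgfra, the growth factor receptor that defines OPCs, 56 had Olig2, a transcription factor of the lineage, and 0 had Eomes, a factor of neuronal progenitors. Of the 25 NPCs, 0 had Pdgfra, 10 had Eomes, 23 had Sox11 and 19 had 3 or more of the 6 NPC markers. Sox11 was also in 33 of the 56 OPCs, of which 9 had 3 or more NPC markers and 36 had 3 or more COP markers. At least 3 AST markers were found in 14 of the 56 OPCs and in 9 of the 25 NPCs. No cell of either group had 3 or more of the 6 EC markers or of the microglia markers. With the libraries pooled, their depth was above that of their classes, with a median of 9430 UMIs in the 56 OPCs, against 6069 in the other OPCs, and 12558 in the 25 NPCs, against 5202.5 in the other NPCs. In 2VO 1 the direction was the opposite for NPCs, where the 3 cells had a median of 1291 UMIs, against 1632 in the other NPCs.

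S and G2/M members marked overlapping sets of OPCs. In 2VO 1, 7 OPCs had 5 or more S members but fewer than 5 G2/M members, 3 had 5 or more of both and 2 had 5 or more G2/M members alone. In sham 1 these numbers were 76, 34 and 10, and in sham 2 they were 21, 6 and 1. In each library OPCs with S members alone thus outnumbered those with both. NPCs showed 0, 0 and 3 such cells in 2VO 1, against 10, 13 and 4 in sham 1 and 2, 4 and 1 in sham 2.

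The few G2/M-rich cells outside these classes differed in their markers. The 4 EC of 2VO 1 lay in cluster 23, had 10 to 12 G2/M but only 2 to 4 S members, and carried 11138 to 25333 UMIs, against a median of 1989 in the other EC of 2VO 1. Each held all 6 EC and all 6 OLG markers and 3 to 5 of the 6 OPC markers. By contrast, 3 or more OPC markers were found in 0.609% of the other EC of 2VO 1 and in 0 of 1009 and 0 of 1592 in the sham libraries. The 1 such EC of sham 1 likewise had 4 OPC markers at 11320 UMIs. The part of mixed droplets in these 5 cells was not tested, and they are not counted here as dividing EC.

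The 3 microglia had 11, 13 and 19 G2/M members, 4 or 6 of the microglia markers, and 0, 0 and 1 OPC markers. The cells with 13 and 11 members were in 2VO 1 (6666 and 2833 UMIs), where they also held 5 and 2 of the 6 OLG markers, and the cell with 19 was in sham 2 (6742 UMIs), with 0 OLG markers. The part of mixed droplets in these cells was not tested either. Among EPN, 2 cells had only 5 G2/M members at 36872 and 61619 UMIs, and 1 cell of sham 2 had 23 G2/M and 11 S members with 5 NPC and 6 EC markers besides 5 EPN markers. The unnamed cell, of sham 2, had 19 G2/M and 8 S members and all 6 EC markers, with 1 OPC, 1 OLG and 2 NPC markers. It lay in cluster 28, led by Plvap, Igfbp3 and Cd300lg, and carried 21821 UMIs, 8.23 times the median of the unnamed cells of sham 2. The part of mixed droplets in it was not tested.

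Thinned to 1000 UMIs, the share of OPCs with several members was lowest in 2VO 1, an order that did not hold at 2000 UMIs. At 1000 UMIs 2 or more G2/M members were found in 1.14% of OPCs of 2VO 1 (5 of 439, exact 95% interval 0.371 to 2.64), against 5.74% in sham 1 (37 of 645, 4.07 to 7.82) and 2.66% in sham 2 (8 of 301, 1.15 to 5.17). For S members the shares were 2.05% in 2VO 1 (0.942 to 3.86), against 11.2% in sham 1 (8.84 to 13.9) and 3.99% in sham 2 (2.08 to 6.86). The interval of 2VO 1 lay below that of sham 1 for both phases and overlapped that of sham 2 for both, and sham 1 and sham 2 were farther apart than 2VO 1 and sham 2. With 1 library against 2, a two-sided exact permutation test cannot go below p = 0.333, so no share was tested, and intervals and limits cover counting error only.

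A deeper thinning changed the order of the shares. At 2000 UMIs, which left out 134 OPCs of 2VO 1, 34 of sham 1 and 13 of sham 2, the G2/M shares were 3.47% in 2VO 1, against 7.62% and 3.09% in sham 1 and sham 2, and the S shares were 9.78%, against 17.8% and 9.62%. The 2VO library was then no longer below sham 2. Without thinning, 5 or more G2/M members were found in 1.11% of OPCs in 2VO 1, against 6.76% in sham 1 and 2.30% in sham 2. As a background, 2 or more G2/M members at 1000 UMIs were found in 0 of 864 OLG of 2VO 1, which allows a share of up to 0.347%, against 0.0655% of 1528 OLG in sham 1 and 0 of 1069 in sham 2, which allows up to 0.281%. Median depths before thinning were 2642, 7119 and 6868 UMIs in OPCs and 2274, 11484 and 7944 UMIs in OLG of 2VO 1, sham 1 and sham 2.

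**Figure D2:**
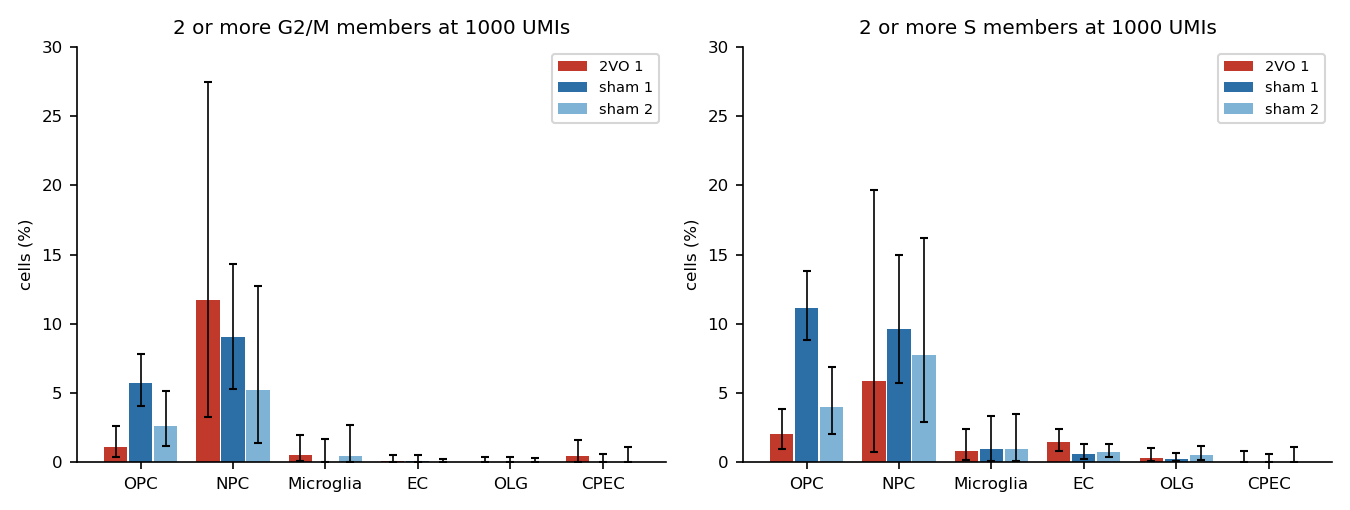
Share of cells (y axis, %) with 2 or more G2/M members (left) or S members (right) after thinning to 1000 UMIs, in 6 classes; bars are single libraries (2VO 1 red, sham 1 dark blue, sham 2 light blue) and lines are exact 95% intervals for counting error. OPCs ranged from 1.14% in 2VO 1 to 5.74% in sham 1 for G2/M members, and OLG, EC, CPEC and microglia stayed under 1% for G2/M members in every library.

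The OPC cluster in which a cell lay went with these shares. In cluster 3 the G2/M share at 1000 UMIs was 3.18% in 2VO 1 (2 of 63, 0.387 to 11.0), against 6.18% in sham 1 (4.39 to 8.41) and 3.01% in sham 2 (1.31 to 5.84), and the S share was 4.76%, against 12.0% and 4.51%. In cluster 14 the G2/M share was 0.798% in 2VO 1 (3 of 376), against 0 of 46 and 0 of 35 in the sham libraries. The interval of 2VO 1 in cluster 3 held the values of both sham libraries. It covers counting error only, so a difference between the groups was not tested there. The low share over all OPCs of 2VO 1 stood beside its high number of cluster 14 cells. What cluster 14 is, another state of OPCs or cells of poorer quality, was not tested.

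The G2/M shares of NPCs had wide intervals, and their order changed with the measure. At 1000 UMIs the share with 2 or more members was 11.8% in 2VO 1 (4 of 34, 3.30 to 27.5), against 9.09% in sham 1 (16 of 176, 5.29 to 14.3) and 5.19% in sham 2 (4 of 77, 1.43 to 12.8). With 5 or more members and no thinning it was 8.33% in 2VO 1, against 9.19% and 6.41%, and the summed level of the G2/M members was 647 CPM, against 864 and 1493 CPM. The S shares of NPCs at 1000 UMIs were 5.88%, against 9.66% and 7.79%. The intervals at 1000 UMIs overlapped. They cover counting error within a library only, so a difference between the groups was not tested.

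The members differed in how closely they marked dividing cells. Of the counts of Hmmr, a spindle-associated protein, 96.2% lay in the 94 cells with 5 or more G2/M members. For Ube2c, the ubiquitin-conjugating enzyme of the anaphase-promoting complex, this was 92.9%, and for Top2a 91.6%. These shares are raised by the rule that picked the cells for the G2/M members, but not for the S members. Among S members Pclaf, a PCNA-binding factor, had 86.9% of its counts in those cells, Tk1, thymidine kinase, 80.8% and Rrm2, the small subunit of ribonucleotide reductase, 70.2%. By contrast, Pcna had 5.36%, Mcm4 5.18% and Rrm1 9.58%.

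Pcna was seen in all classes with the libraries pooled, for example at 49.4 CPM (counts of a gene scaled to a common total of UMIs in the class) in OLG, over all libraries, against 60.0 CPM in OPCs and 84.7 CPM in NPCs. In OLG the level was 54.7 CPM in 2VO 1, against 47.3 CPM in sham 1 and 52.9 CPM in sham 2, whereas Top2a was found in 4 and Mki67 in 26 of 3471 OLG. For this reason a cell was counted only where several distinct members were found.

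**Figure D3:**
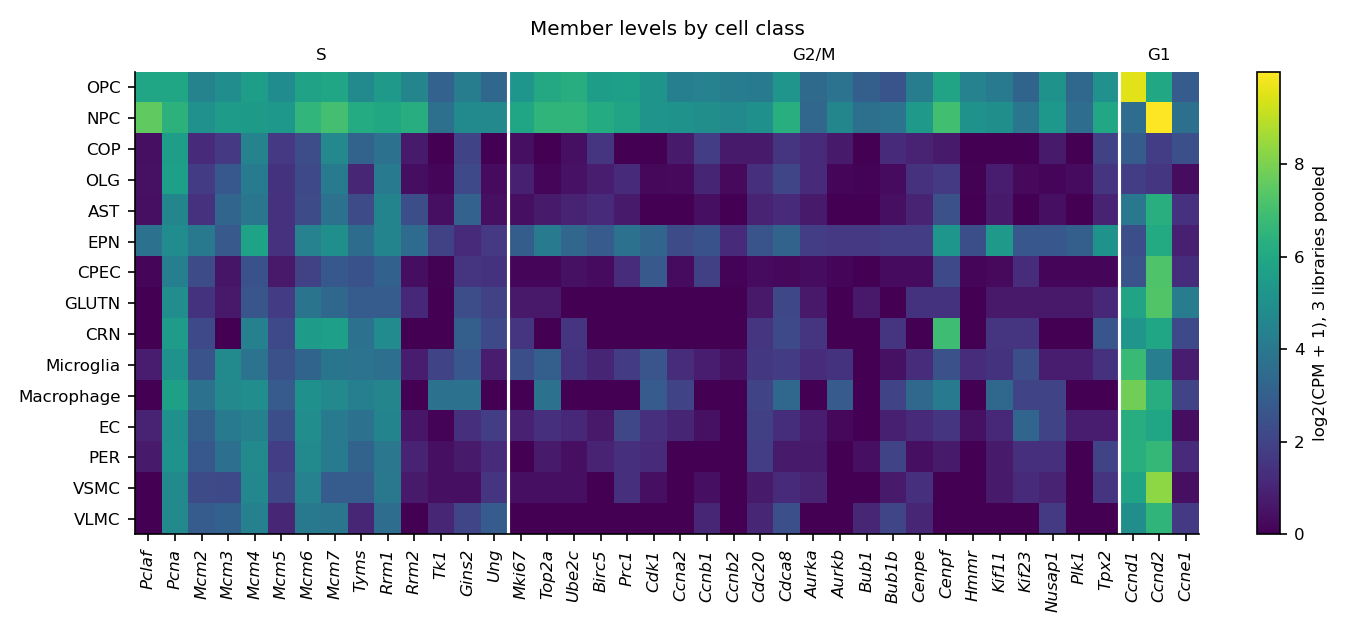
Level of each member (columns: 14 S, 23 G2/M and 3 G1 genes) in each of the 15 named classes (rows), as log2(CPM + 1) over the 3 libraries pooled. G2/M members are bright in OPCs and NPCs, Pcna is present in every row (49.4 CPM in OLG), and Ccnd1 peaks in OPCs (748 CPM) and Ccnd2 in NPCs (1023 CPM).

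Some G2/M members were also found in many cells of classes with few or no cells of 5 or more G2/M members. Cenpf, a kinetochore and microtubule protein, stood at 139 CPM in CRN of 2VO 1, against 104 CPM in sham 1 and 137 CPM in sham 2, in 39 of 109 CRN (35.8%). Of these 39 cells, 30 had no other G2/M member and Top2a was in 0 of 109 CRN. Kif11 was found in 56 of 163 EPN (34.4%), 24 of them with no other G2/M member. Tpx2, a spindle assembly factor, was found in 41 EPN, of which 8 had no other G2/M member and 10 had 3 or more others. Cdk1, the kinase that drives entry into mitosis, was found in 205 of 1366 CPEC (15.0%), at 7.99 CPM in 2VO 1, against 5.13 CPM in sham 1 and 6.00 CPM in sham 2, and 153 of these cells had no other G2/M member. These patterns were seen in every library with the exception of Tpx2, which had 0 UMIs in the 9 EPN of 2VO 1.

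The G1 cyclins divided the progenitor classes between them. Ccnd1 (cyclin D1, chr7:144929931-144939925) was highest in OPCs, at 528 CPM in 2VO 1, against 844 CPM in sham 1 and 671 CPM in sham 2, and OPCs held 72.3% of all its counts. In NPCs it had 0 counts in 2VO 1, against 14.1 CPM and 4.15 CPM in sham 1 and sham 2. The NPC sum of 2VO 1 was small, with 29 S counts making 399 CPM, so levels as low as those of the sham libraries could give 0 counts there. Ccnd2 (cyclin D2, chr6:127125162-127152193) was highest in NPCs, at 413 CPM in 2VO 1, against 1227 CPM in sham 1 and 571 CPM in sham 2. The next class was VSMC, at 355 CPM in 2VO 1, against 359 CPM and 287 CPM. Each cyclin D was found far beyond the dividing cells, with 8.79% of Ccnd1 and 5.90% of Ccnd2 counts in the 94 cells with 5 or more G2/M members.

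In OPCs of 2VO 1 the members were on the whole lower than in OPCs of the sham libraries. UMIs were summed per library and class and tested by edgeR's quasi-likelihood test, with Benjamini-Hochberg adjusted p over all 12277 genes; the lone 2VO library was assumed to vary like the sham libraries, and CPM values of these tests carry TMM scaling. Calls needed an adjusted p below 0.05 together with more than a 1.5-fold change. Of the 40 members 19 were called lower and 0 higher (12 of 23 G2/M, 6 of 14 S and 1 of 3 G1 genes), where 18.3% of all genes were called lower and 11.1% higher (29.4% in all). The median log2 change was -1.79 for G2/M members and -1.11 for S members, beside -0.02 for all genes, and 38 of 40 members in 2VO 1 were below both sham libraries, beside 44.3% of all genes. Kif11, with 1 UMI in 2VO 1, and Aurka, Plk1 and Bub1b, with 3 UMIs each, passed the filter on low counts through the sham libraries alone. The calls, the medians and the count of 38 thus include members whose low value the filter favoured. DESeq2 called only 2 of the 40, Ccnd1 and Top2a, with no adjusted p for 32.

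The call depended on which OPCs were compared. Within cluster 3 alone, 0 of the 40 members and 0 of 11741 genes (0%) were called by edgeR, 1 member had an unadjusted p under 0.05, and 15 members in 2VO 1 were below both sham libraries. DESeq2 called 0 members there as well. Within cluster 14 alone, 0 of 12 members tested and 0 of 9901 genes (0%) were called by edgeR, with 2 members at an unadjusted p under 0.05, and DESeq2 called 0 members. The median log2 change of the members was -0.54 in cluster 3 and 0.13 in cluster 14. These comparisons were added after the values had been seen, and cluster 3 of 2VO 1 holds only 63 cells, so they do not show that its OPCs were alike in both groups. Fewer dividing OPCs and less RNA of a member per OPC cannot be told apart in such sums.

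Markers of other cell types also differed between OPCs of the libraries. Among OPCs with fewer than 5 G2/M members, 3 or more OLG markers were found in 26.0% in 2VO 1, against 7.58% in sham 1 and 1.68% in sham 2, and 3 or more EC markers in 15.7%, against 2.31% and 5.39%. OPC markers were held by 96.6%, against 99.5% and 99.7%. The part of these differences in the member calls was not tested.

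Among genes of the spindle and chromosome segregation, Kif11 had 1 UMI in OPCs of 2VO 1, against 110 and 31 UMIs in sham 1 and sham 2, a ratio of rates of 0.0342 (exact 95% interval 0.000859 to 0.193), and its adjusted p in edgeR's quasi-likelihood test was 0.00498. This is the smallest p among the members, but the filter on low counts favoured the low value of Kif11, which passed it through the sham libraries alone. Such ratios of rates pool the 2 sham libraries. Their intervals take each UMI as independent and cover counting error only, not the spread between mice. Tpx2 stood at 10.6 CPM in 2VO 1, against 43.0 and 28.1 CPM (log2 change -1.79 ± 0.40 SE, edgeR adjusted p = 0.0105). Cdca8, borealin of the chromosomal passenger complex, stood at 9.96 CPM, against 50.8 and 27.6 CPM (-2.03 ± 0.46, edgeR adjusted p = 0.0113).

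Birc5, of the same complex, stood at 13.1 CPM in 2VO 1, against 65.6 CPM in sham 1 and 31.8 CPM in sham 2 (log2 change -1.95 ± 0.48, edgeR adjusted p = 0.0152). Top2a stood at 23.04 CPM, against 89.95 and 46.9 CPM (-1.61 ± 0.41, edgeR adjusted p = 0.0170). Aurka, a kinase of the spindle poles, had 3 UMIs in 2VO 1, against 61 and 20 UMIs, a ratio of 0.178 (0.0360 to 0.540). All of these were lower in 2VO 1 than in either sham library, and sham 1 was the higher of the sham libraries for each. Prc1, which bundles midzone microtubules, and Nusap1, a spindle microtubule protein, were also called lower, by -1.59 and -1.89.

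Of the enzymes that drive and end mitosis, Ube2c stood at 9.34 CPM in 2VO 1, against 116 CPM in sham 1 and 33.3 CPM in sham 2 (-3.06 ± 0.76, edgeR adjusted p = 0.0156). Cdk1 stood at 9.34 CPM, against 51.4 and 20.8 CPM (-2.03 ± 0.58, edgeR adjusted p = 0.0276). Its partners Ccnb1 and Ccnb2 were called lower, by -3.15 and -1.68. Mki67, which coats mitotic chromosomes, did not pass the test, with 23.04 CPM in 2VO 1, against 51.4 CPM in sham 1 and 20.3 CPM in sham 2 (-0.72 ± 0.49, edgeR adjusted p = 0.294). It was 1 of 2 members whose 2VO value lay between the sham values, the other being Ung, a DNA repair enzyme.

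The S members called lower were Pclaf, Pcna, Rrm2, Mcm3, Mcm4 and Mcm6. Pclaf stood at 11.2 CPM in 2VO 1, against 91.9 CPM in sham 1 and 21.9 CPM in sham 2 (-2.43 ± 0.79, edgeR adjusted p = 0.0445), so that the sham libraries differed from each other more than sham 2 from 2VO 1 on the CPM scale. Rrm2 stood at 4.36 CPM, against 34 and 13.54 CPM (-2.52 ± 0.69, edgeR adjusted p = 0.0231), and Pcna at 29.9 CPM, against 76.4 and 53.1 CPM (-1.14 ± 0.30, edgeR adjusted p = 0.0191).

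For the helicase, Mcm6 stood at 30.5 CPM in 2VO 1, against 64.8 CPM in sham 1 and 48.9 CPM in sham 2 (-0.92 ± 0.28, edgeR adjusted p = 0.0335), and Mcm3 and Mcm4 were called lower, by -1.46 and -1.07. Mcm2 had 13.7 CPM, against 26.7 and 17.7 CPM, and did not pass (edgeR adjusted p = 0.192). Tyms, thymidylate synthase, had 16.2 CPM, against 32.7 and 24.5 CPM, and did not pass either (edgeR adjusted p = 0.0922). In OPCs without any cell of 3 or more S or G2/M members, Mcm6 was at 15.8 CPM in 2VO 1, against 11.1 and 16.2 CPM, with a log2 change of 0.27. The S and G2/M members, Mcm6 among them, picked the cells left out, so their levels there are cut by the rule. The rule was applied without thinning, and members are found more readily in the deeper sham cells, so this value is no separate result.

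Ccnd1 was the only G1 cyclin called, at 476 CPM in OPCs of 2VO 1, against 895 CPM in sham 1 and 712 CPM in sham 2 (-0.76 ± 0.25, edgeR adjusted p = 0.0491). It was also the 1 member of 9 tested that was called in OPCs without cells of 3 or more S or G2/M members, at 426 CPM, against 801 and 707 CPM (-0.82, edgeR adjusted p = 0.0125), where 20.3% of all genes were called lower. Within the clusters the difference was not seen. In cluster 3 Ccnd1 stood at 888 CPM in 2VO 1, against 911 and 730 CPM, and in cluster 14 at 375 CPM, against 454 and 329 CPM. Ccnd2 (59.2 CPM, against 67.1 and 60.9 CPM) and Ccne1 (3.74 CPM, against 7.10 and 7.81 CPM) did not pass in OPCs.

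**Figure D4:**
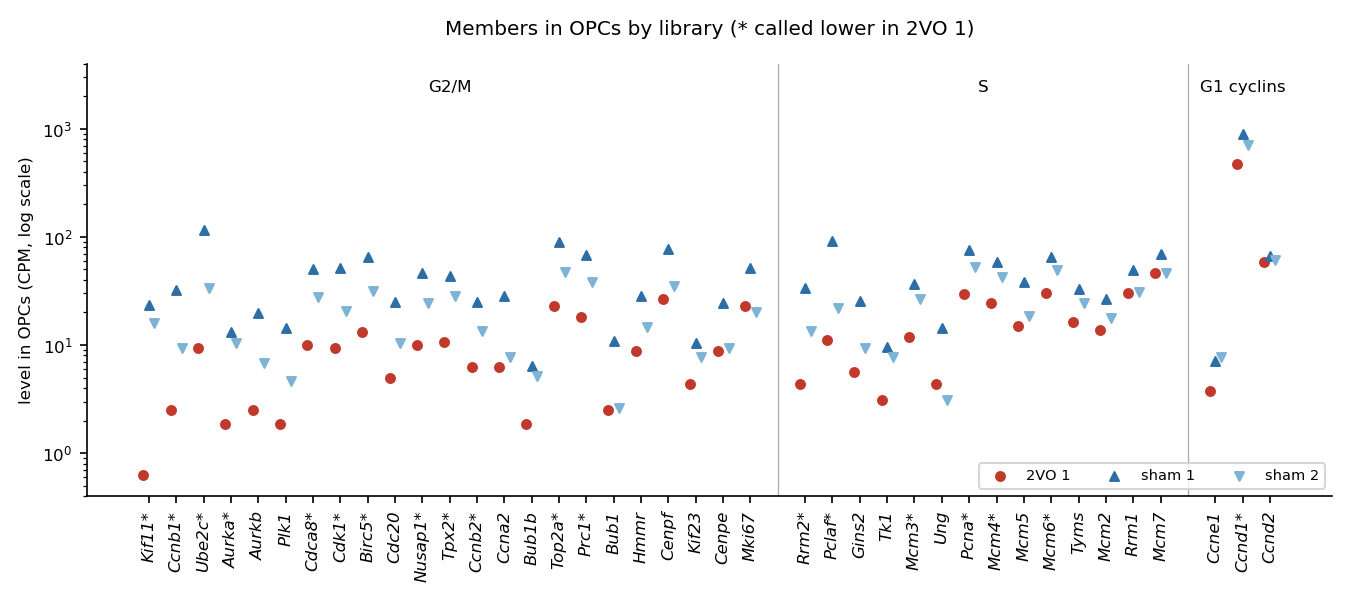
TMM-scaled level of the 40 members in OPCs (y axis, CPM on a log scale) in 2VO 1 (red circles), sham 1 (dark triangles) and sham 2 (light triangles), ordered within each phase by log2 change; stars mark members called by edgeR. In 2VO 1, 38 of 40 members lie below both sham libraries, and sham 1 lies above sham 2 for every member but Ccne1, as for Pclaf (11.2 CPM in 2VO 1, 91.9 CPM in sham 1 and 21.9 CPM in sham 2).

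Leaving out sham 1 made the changes smaller. The median log2 change was then -1.01 for G2/M members and -0.61 for S members, with 25 of 36 members past 1.5-fold in place of 37 of 40, and Mki67 was 0.22 higher. Without sham 2 the medians were -2.08 and -1.32. A comparison of 1 library with 1 has no spread, so no test was made of these.

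Other S and G2/M genes in OPCs were called lower more often than higher, where 18.3% of all genes were called lower. Of 49 other G2/M genes tested 20 were called lower and 0 higher by edgeR, among them Racgap1, of the spindle midzone (-2.73), Hmgb2, a chromatin protein (-1.55), Cks2, a Cdk partner (-2.29), and Lockd (-3.51). Of 35 other S genes 10 were called lower and 0 higher, among them Rfc4 of the clamp loader (-2.34), Dut (-1.51), Tipin (-1.43) and Orc6 (-1.22). Of 34 regulators 7 were called lower and 0 higher, but their median log2 change was -0.16 and 9 were above both sham libraries. The 7 included Cdk4, the kinase partner of cyclin D, at 95.9 CPM in 2VO 1, against 311 CPM in sham 1 and 289 CPM in sham 2 (-1.65, edgeR adjusted p = 0.00498), and 3 inhibitors of cyclin-dependent kinases, Cdkn2d (-1.51), Cdkn2c (-2.20) and Cdkn1c (-1.42). In OLG, Cdk4 (-1.29), Cdkn2d (-1.26) and Orc6 (-1.23) were also called lower by edgeR, where 9.64% of all genes were called. Cdkn2c, Cdkn1c, Rfc4, Dut, Tipin, Racgap1, Hmgb2 and Cks2 were tested there and not called. Of 17 further genes, of chromatin, tubulin and the like, edgeR called 15 lower in OPCs, 14 in NPCs and 7 in OLG, and 0 higher in each. In CRN and GLUTN 0 of the 12 tested were called, but 11 and 10 were below both sham libraries, beside 44.0% and 42.1% of all genes. Lower values of these genes were thus also seen in classes without a cell of 5 or more G2/M members.

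In NPCs 2 of 35 members tested were called lower and 0 higher by edgeR, where 6.94% of all genes were called lower and 2.82% higher (9.77% in all). Ccnd2 stood at 366 CPM in 2VO 1, against 1377 CPM in sham 1 and 637 CPM in sham 2 (-1.47 ± 0.39, edgeR adjusted p = 0.0293), and it was found in 25% of NPCs of 2VO 1, against 60.5% and 48.7%. Pclaf rested on 6 UMIs in 2VO 1, at 73.3 CPM, against 219 and 209 CPM (-1.55 ± 0.43, edgeR adjusted p = 0.0358). DESeq2 called neither. The class held 36 cells in 2VO 1 with a median of 1624 UMIs, against 6152 and 5452 UMIs. Among NPCs with fewer than 5 G2/M members, 3 or more OLG markers were found in 30.3% in 2VO 1, against 7.74% in sham 1 and 1.37% in sham 2, and 3 or more EC markers in 18.2%, against 1.19% and 1.37%. At least 3 NPC markers were found in 66.7%, against 86.3% and 97.3%. The part of these differences in the NPC calls was not tested.

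Other genes called lower in NPCs were Cdk4 (-1.79), Btg2, an antiproliferative factor (-1.46), Cdkn1b (-1.31), Dut (-1.37), Nasp, a histone chaperone (-1.39), and Hmgb2 (-1.21). Of these, Cdk4 was also called lower in OLG (-1.29), and the others were not. Rfc4 and Cks1b were called on 1 and 2 UMIs in 2VO 1, with ratios of 0.154 (0.00388 to 0.871) and 0.256 (0.0308 to 0.938), whose intervals cover counting error only. None of the 20 G2/M members tested in NPCs was called by edgeR, with 4 at an unadjusted p under 0.05. DESeq2 called 0, but it gave no adjusted p for 34 of the 35 members. The median log2 change in NPCs was -1.39 for G2/M members and -1.75 for S members, beside -0.11 for all genes, and 28 of the 35 members in 2VO 1 were below both sham libraries, beside 47.2% of all genes. However, the NPC sums of 2VO 1 held only 29 S and 47 G2/M counts. Mcm2, Mcm5, Cdk1 and Kif11 had 0 CPM there and passed the filter through the sham libraries alone, and Mcm6 and Rrm2, among others, had 1 UMI. The medians and the count of 28 thus include members whose low value the filter favoured.

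In EC 0 of 22 members tested were called by edgeR, where 2.31% of all genes were called. DESeq2 also called 0, with no adjusted p for 5 of them. By edgeR 3 of the 22 were below 0.05 before adjustment. These were Top2a (3.62 CPM in 2VO 1, against 1.02 and 0.698 CPM, edgeR adjusted p = 0.230), Mcm3 (22.0 CPM, against 12.2 and 15.2 CPM) and Cenpf (4.22 CPM, against 1.52 and 0.872 CPM). The 4 EC of 2VO 1 with OPC and OLG markers are part of these sums. Among other genes Anln, a contractile ring protein that myelinating cells also express, was higher in EC of 2VO 1, at 27.2 CPM, against 3.56 and 2.62 CPM (3.15, edgeR adjusted p = 0.00351), beside 3 or more OLG markers in 16.6% of EC with fewer than 5 G2/M members in 2VO 1, against 4.06% and 0.503%. The inhibitors Cdkn1c (-1.36) and Cdkn2b (-0.90) were called lower.

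In microglia 0 of 11 members tested were called by edgeR, where 2.08% of all genes were called. DESeq2 also called 0, but it gave no adjusted p for 10 of them. By edgeR 3 of the 11 were below 0.05 before adjustment. Ccnd2 stood at 39.3 CPM in 2VO 1, against 7.76 CPM in sham 1 and 8.53 CPM in sham 2 (2.26 ± 0.47, edgeR adjusted p = 0.0682), and rested on 37 UMIs in 21 of 371 cells. Ccnd1 stood at 63.8 CPM, against 144 and 119 CPM (-1.05 ± 0.26, edgeR adjusted p = 0.0920), and Mcm3 at 13.8 CPM, against 33.0 and 32.9 CPM (edgeR adjusted p = 0.146). For both cyclins the 2VO library lay outside the sham values, in opposite directions, without passing the adjusted threshold. The class was split unevenly, with 355 of its cells in 2VO 1 in cluster 11, against 78 and 89 in sham 1 and sham 2, and 16 in cluster 17, against 136 and 113, and the part of this split in both differences was not tested. Anln was called higher here too (2.00), beside 3 or more OLG markers in 29.3% of microglia with fewer than 5 G2/M members in 2VO 1, against 10.7% and 0.995%. At least 3 EC markers were found in 26.6% of these microglia in 2VO 1, against 3.27% and 4.98%. With the libraries pooled, Ccnd2 stood at 57.6 CPM in EC and 1.97 CPM in OLG. The part of EC markers in the Ccnd2 value of microglia was not tested.

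In the other 10 classes with enough cells for a test, 1 to 22 members could be tested and edgeR called 0 in each. The share of all genes called was 9.64% in OLG, 5.93% in macrophages, 5.47% in CPEC, 1.62% in GLUTN, 1.06% in VLMC, 1.05% in AST, 0.897% in CRN, 0.415% in VSMC and 0% in COP and PER. Of these members 3 in CPEC, 1 in macrophages and 1 in OLG were below 0.05 before adjustment, and 1 was called by DESeq2, Ccnd2 in CPEC. It stood at 98.8 CPM in 2VO 1, against 174 and 150 CPM (edgeR log2 change -0.71, adjusted p = 0.0771). DESeq2 gave no adjusted p for 17 of 18 members in CPEC, 21 of 22 in OLG and 1 of 2 in macrophages. It gave none for any member tested in AST, COP and GLUTN. In sums of whole libraries 0 of 40 members and 0 of 17147 genes (0%) were called by edgeR, with 6 members at an unadjusted p under 0.05, and by DESeq2 0 members were called, with 7 at an unadjusted p under 0.05. The median there was -1.03 for G2/M and -0.23 for S members, and such sums also move with the mix of cell types.

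To describe dividing OPCs beyond the members, OPCs with 5 or more S or 5 or more G2/M members were set against the other OPCs of the same library. There were 12 such cells in 2VO 1, 120 in sham 1 and 28 in sham 2, with a median of 5396, 8775 and 8892 UMIs, against 2599, 6939 and 6765 UMIs in the other OPCs. The sums were fitted by edgeR with the library as a block, a comparison added after the values had been seen. The S and G2/M members are raised here by the rule and give no result. Outside the cell cycle lists 4.68% of 10419 genes were called higher and 1.51% lower (6.19% in all). Those called higher include further genes of the cycle that the lists do not hold, such as Aspm, Gmnn and Fbxo5.

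All 34 other S genes tested and 46 of 49 other G2/M genes were higher in the cycling OPCs, with median log2 changes of 3.25 and 5.71. The rule also raises genes that rise together with the members. Genes near 0 in the other OPCs could pass the filter through the cycling cells alone. The counts of these lists are therefore no separate result. Of 35 regulators 15 were higher and 1 lower. E2f1, which switches on S genes, was higher by 6.12 on the log2 scale, Foxm1, which switches on G2/M genes, by 5.06, and Cdkn2c, an inhibitor of Cdk4, by 3.29. The 1 that was lower was Cdkn1c, an inhibitor of cyclin-dependent kinases, with 39.5 CPM in cycling OPCs of 2VO 1, 21.7 CPM in sham 1 and 15.7 CPM in sham 2, against 28.5, 72.4 and 102 CPM in the other OPCs (-1.80, edgeR adjusted p = 3.67e-06); within 2VO 1 the direction was the opposite.

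Among the G1 cyclins, which the rule did not use, Ccnd1 was at 1409 CPM in cycling OPCs of 2VO 1, 1232 CPM in sham 1 and 843 CPM in sham 2, against 445, 794 and 688 CPM in the other OPCs (0.81 ± 0.17, edgeR adjusted p = 0.000772). It was higher in all 3 libraries. In 2VO 1 the cycling OPCs were 5 cells of cluster 3 and 7 of cluster 14, against 58 and 381 among the other OPCs, and Ccnd1 itself was higher in cluster 3 of that library (888 CPM) than in cluster 14 (375 CPM). The part of this mix in the differences between cycling and other OPCs was not tested. Ccne1, the cyclin of the G1/S switch, was higher by 3.49, and Ccnd2 did not pass (0.46, edgeR adjusted p = 0.179).

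Markers of the lineage changed unevenly between cycling and other OPCs. Of the 6 OPC markers 0 were called (Pdgfra -0.12, edgeR adjusted p = 0.754). Of 5 COP markers tested 4 were lower in cycling OPCs, namely Bcas1 (-0.89), Gpr17 (-0.74), Neu4 (-0.60) and Bmp4 (-1.11), and of 6 OLG markers 2 were lower, Cldn11 (-1.05) and Mobp (-0.94), both of which were higher in the cycling OPCs within sham 2. Gpr17, a receptor of cells about to differentiate, stood at 448 CPM in cycling OPCs of 2VO 1, 332 CPM in sham 1 and 290 CPM in sham 2, against 644, 629 and 447 CPM in the other OPCs, lower in each library. Of 3 NPC and 3 AST markers tested 0 were called.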

How the data were processed

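Hippocampal cells were profiled by droplet single-cell RNA sequencing. The authors deposited a matrix of UMI counts (unnormalized whole numbers per gene and barcode) for each of 3 libraries, and the submitters' processing notes name Cell Ranger, Seurat 3.2.2 and mm10. The counts were used as deposited, over barcodes with 650 or more genes. Cells were clustered with scanpy 1.11.5 (2000 variable genes without 184 cell cycle genes, 30 principal components, 15 neighbours, Leiden resolution 1.0). A class was named from 3 or more markers. Scrublet marked 235 of 14147 cells as doublets, which were kept. Total UMIs were 18754480 in 2VO 1, against 65287386 and 40459614 in sham 1 and sham 2, so that low members in 2VO 1 rest on few counts. Shares have exact Clopper-Pearson 95% intervals, and a count of 0 was read as up to 3 counts. Ratios of rates set 2VO 1 against the pooled sham libraries, and their intervals take each UMI as independent. Counts summed per library and class (10 or more cells in each library) were tested with edgeR 4.0.16 (TMM, filter on low counts, Benjamini-Hochberg over all genes) and, as an alternative, DESeq2 1.42.0. These tests have 1 residual degree of freedom among samples. The deposited labels do not say whether the sham libraries share a preparation day, so p-values measure only the spread between these samples. Members named singly were a fixed set of 14 in OPCs, every member called in a class, the 3 with the smallest p in OPCs, microglia and EC, and at most 4 genes per other list; any further gene named was chosen after its values were seen. Members and lists were chosen with earlier results of these data known. Other thinning depths, member minimums, normalizations, filters, clusterings and sets of libraries were tried as alternatives. The code was tested on simulated data.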

Additional observations from a re-analysis of the deposited data

How the results depend on the processing

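No paired analysis was possible because only 1 2VO library was analysed, so the groups share only 1 replicate number. Values below are in the order 2VO 1, sham 1 and sham 2 unless a library is named, and the cause of each change was not tested. Over all cells, the share with 2 or more G2/M members (0.369%, 1.15% and 0.294% at 1000 UMIs) was 1.38%, 4.64% and 2.03% without thinning, 0.872%, 1.60% and 0.507% at 2000 UMIs, 3.66%, 3.80% and 2.39% for 1 or more members, and 0.158% in 2VO 1 and 0.811% in sham 1 for 3 or more. The S share (1.00%, 2.08% and 0.920%) was 10.7%, 28.7% and 19.1% without thinning, 4.10%, 5.20% and 3.50% at 2000 UMIs, 12.99%, 13.99% and 13.2% for 1 or more members, 0.185%, 0.890% and 0.235% for 3 or more, and with another random thinning 1.48% in 2VO 1 and 1.27% in sham 2. In OPCs the G2/M share was 3.104% in 2VO 1 and 12.4% in sham 1 without thinning, 3.47% in 2VO 1 at 2000 UMIs, and 6.83%, 10.9% and 5.98% for 1 or more members. The OPC S share was 13.1%, 39.2% and 26.6% without thinning, 9.78%, 17.8% and 9.62% at 2000 UMIs, 15.95%, 30.1% and 19.9% for 1 or more members, and 5.43% in sham 1 and 1.99% in sham 2 for 3 or more. Within cluster 3, chosen after seeing the data, 2VO 1 had 3.18% (G2/M) and 4.76% (S), and within cluster 14 both sham libraries had 0% for both.

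The share of cells with 3 or more G2/M members that were OPCs or NPCs (45.0%, 77.6% and 35%) was 48.1% in sham 1 and 19.2% in sham 2 for 2 or more members, and 95.3% in sham 1 and 75.0% in sham 2 for 5 or more. For S members (22.5%, 34.4% and 19.8%) it was 15.4%, 22.9% and 11.1% for 2 or more, and 52.6%, 79.2% and 54.1% for 5 or more. The 19 members called in OPCs became 2 by DESeq2, 30 with no filter on low counts, 29 when cells were clustered with the cell cycle genes, 1 without cells of 3 or more S or G2/M members, and 0 in cluster 3 or 14 alone. Over all tested classes 21 calls became 3 by DESeq2, 43 with no filter and 33 when clustered with the cell cycle genes. DESeq2 gave no adjusted p for many members, such as 32 of 40 in OPCs and 34 of 35 in NPCs. Leaving out 1 sham library gave 13 to 26 members past 1.5-fold in whole libraries and 25 to 39 in OPCs. Mcm6 in OPCs was 0.27 higher without cells of 3 or more members, a rule that uses Mcm6 itself and depends on depth. Median depth per cell was lowest in 2VO 1, which limits the detection of members there.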
